A study of Mus musculus with 7 samples.

Results

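Activated B cells do not only make antibody but also secrete cytokines, and 8 genes for cytokines made by cells of the B lineage were examined in splenic memory B cells (MBCs) and plasma cells (PCs). They were chosen by name from 48795 genes in the deposited table and encode IL-10, the IL-12 family chains EBI3 and IL-12 p35 (Il12a), IL-6, TGF-β1 (Tgfb1), TNF, and the lymphotoxin chains LTα (Lta) and LTβ (Ltb). Of these, 6 reached the level required for testing, as did 11573 genes in all. Tnf was lower in PCs and was the only member called, that is, with an adjusted p under 0.05 and a log2 fold change of at least 1 in size, and its call was lost under 11 of 16 alternative settings. On scaled values, Lta and Tgfb1 were lower in every PC library than in any MBC library, and Ebi3 was higher in every PC library. These differences did not pass the test, and for Ebi3 the groups overlapped in TPM as deposited. Il6 was listed at 0 in all 7 libraries, and Il10 was near or under the detection floor, set at 3 reads, in all but PC replicates 1 and 2.

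The 8 proteins belong to 4 groups. IL-10 is a homodimer that restrains inflammatory responses, and B cells and plasma cells that make it are known as regulatory cells. EBI3 is secreted with a partner chain: with IL-12 p35 it forms IL-35, and with IL-27 p28 it forms IL-27. IL-12 p35 also pairs with IL-12 p40 to form IL-12, whereas IL-6 acts alone through its receptor and the shared chain gp130. TGF-β1 is stored in a latent complex until it is activated, and it steers class switching to IgA. TNF, LTα and LTβ are members of the TNF superfamily. LTα is secreted as a homotrimer that binds the TNF receptors, or it is held at the surface with LTβ as a heterotrimer that signals to stromal cells bearing the LTβ receptor, by which B cells maintain follicular dendritic cells in the spleen.

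All mice were female wild-type C57BL/6 animals of 8-12 weeks that had received sheep red blood cells by the intravenous route, and their spleens were collected 10 days later. B cells were enriched with CD43 MicroBeads and sorted. The 3 MBC libraries came from B220+ CD138Neg IgDneg CD38+ CD273+ cells and the 4 PC libraries from B220lo CD138+ IgD- cells. There was no resting or unimmunized group, the labels do not say how many mice contributed to a library, and p-values therefore measure only the spread between these libraries. Values are given as scaled TPM, in which the deposited TPM (reads per transcript length, brought to a fixed total) was divided by a library factor, so that the immunoglobulin transcripts of PCs do not press down the other genes. TPM is a level per length and can be compared between genes. Values of single libraries are listed in the order of their replicate numbers.

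Library properties that bear on the values were as follows. Immunoglobulin genes took 1.65% to 3.16% of the TPM in MBCs and 49.4% to 55.9% in PCs. Plasma cell genes separated the groups, with Sdc1, which encodes CD138, at 0 to 0.0585 scaled TPM in MBCs and at 49.6 to 78.1 in PCs. MBC replicate 3 stood apart from its group. It held Cd38 at 6.77 scaled TPM and Pdcd1lg2, which encodes CD273, at 2.59, against 130 and 186 and against 43.3 and 24.4 in MBC replicates 1 and 2, so that transcripts of its gating proteins were low. Its germinal center markers summed to 664 scaled TPM, compared with 244 and 270 in the other MBC libraries. Its profile correlated better with the PC libraries (Pearson's r across genes of 0.70 to 0.777) than with the other MBC libraries (r of 0.681 and 0.687). MBC replicates 1 and 2 correlated at 0.675 with each other and at 0.537 to 0.564 with the PC libraries. MBC replicate 3 was thus no less like its group, but more like PCs. It also had 18061 genes above 0, against 12983 and 11527 in MBC replicates 1 and 2. For Tnf, Tgfb1 and Ebi3, test results are also given without it. The labels give MBC replicate 3 and PC replicate 4 the same code in their titles, and likewise MBC replicate 1 and PC replicate 1, and MBC replicate 2 and PC replicate 3, without saying what a code marks. PC replicate 4 was the library with which MBC replicate 3 correlated best (r = 0.777). An estimated 6.22, 6.82 and 11.6 reads stood behind 1 deposited TPM of a transcript of 1 kb in the MBC libraries, and 14.8, 15.1, 9.36 and 16.3 in the PC libraries.

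The genes of the TNF family lie side by side. In the GRCm38 build, Ltb occupies chr17:35194439-35196320 on the plus strand, Tnf chr17:35199381-35202007 on the minus strand and Lta chr17:35203165-35205351 on the minus strand, within 10913 bases. Ebi3 lies farther along the same chromosome, at chr17:55952640-55957022. The bases before the starts of these 4 genes are shown because the first 3 are neighbours and were all lower on average in PCs, and because Ebi3 took the opposite direction. The windows end at the start as RefSeq places it or, for Ltb, at the earliest annotated start, and for Ebi3 the RefSeq start lies a few bases before the gene start given above. The sequences are from RefSeq (GRCm38.p6), written in the direction of transcription, and capitals mark matches to the motifs searched.
Ltb, chr17:35194257-35194438, plus strand: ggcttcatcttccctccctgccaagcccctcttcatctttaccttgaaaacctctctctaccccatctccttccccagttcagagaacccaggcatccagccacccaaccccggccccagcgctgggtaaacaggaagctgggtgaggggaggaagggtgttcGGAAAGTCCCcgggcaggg
Tnf, chr17:35202008-35202257, minus strand: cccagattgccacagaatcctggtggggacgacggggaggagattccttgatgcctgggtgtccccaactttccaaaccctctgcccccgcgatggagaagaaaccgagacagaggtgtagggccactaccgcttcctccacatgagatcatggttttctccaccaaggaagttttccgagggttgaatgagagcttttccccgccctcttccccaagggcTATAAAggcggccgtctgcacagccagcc
Lta, chr17:35205352-35205601, minus strand: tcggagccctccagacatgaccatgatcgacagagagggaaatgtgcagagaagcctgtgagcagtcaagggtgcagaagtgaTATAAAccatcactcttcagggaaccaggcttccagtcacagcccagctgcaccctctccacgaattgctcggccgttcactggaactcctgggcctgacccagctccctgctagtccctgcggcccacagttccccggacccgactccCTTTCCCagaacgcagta
Ebi3, chr17:55952373-55952622, plus strand: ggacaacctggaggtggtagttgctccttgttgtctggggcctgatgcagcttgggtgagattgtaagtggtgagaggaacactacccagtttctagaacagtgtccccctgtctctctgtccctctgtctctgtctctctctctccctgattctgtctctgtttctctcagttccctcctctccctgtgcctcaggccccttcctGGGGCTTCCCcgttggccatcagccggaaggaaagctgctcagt
The motifs, sought on both strands, were the NF-κB consensus, the TATA box TATAAA, the AP-1 site TGANTCA and GNGAAAG, the core of the site bound by the plasma cell repressor Blimp-1. The NF-κB consensus was matched at Ltb and Ebi3 and is held by 3.90% of all 32851 promoters in the table over 250 bases. TATAAA was matched at Tnf and Lta (12.4% of all promoters), in Tnf 29 bases before the start and in Lta 167 bases before it. GNGAAAG was matched at Lta (19.4% of all promoters), and TGANTCA at none of these 4 (6.75%). No matches overlapped, and the Ltb window was shorter, at 182 bases, because annotated transcripts begin within it. The table held promoters for 7 of the 8 members. These are matches of letters in a window and not sites of binding.

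Among the ligands of the TNF superfamily, Tnf was lower in PCs than in MBCs. Tnf was at 7.68, 11.1 and 10.5 scaled TPM in the MBC libraries, and at 1.78, 2.33, 0.32 and 2.08 in the PC libraries. The groups did not overlap, and the values of MBC replicate 3 lay with those of its group. On average Tnf reached 9.75 ± 1.82 (SD, n = 3) in MBCs against 1.63 ± 0.901 (SD, n = 4) in PCs, and the log2 fold change was -2.10 (SE 0.53, 95% interval -3.29 to -0.91), with an adjusted p of 0.0389 by limma. The lowest PC value, in replicate 3, stood on an estimated 3.24 reads. The call did not survive the omission of any single library except MBC replicate 3 (adjusted p 0.0348 without it). Without MBC replicate 1 or 2 the adjusted p was 0.0512 and 0.0704, and without PC replicates 1 to 4 in turn it was 0.0806, 0.0981, 0.109 and 0.0964, with log2 fold changes between -2.28 and -1.81. In bulk libraries, fewer cells of a type and less RNA per cell cannot be told apart.

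Lta lay upstream of Tnf on the same strand, 1157 bases away, and showed a difference of like size with more spread. Its scaled TPM was 20.4, 8.45 and 20.5 in the MBC libraries and 7.72, 0.832, 4.59 and 1.23 in the PC libraries. The groups did not overlap, although MBC replicate 2 and PC replicate 1 lay close together. The log2 fold change of -2.12 (SE 0.68, 95% interval -3.63 to -0.60) did not pass the test, with an adjusted p of 0.0909 by limma.

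Ltb was the most abundant member in 5 of the 7 libraries, and its groups overlapped. It reached 66.0, 19.2 and 41.3 scaled TPM in the MBC libraries and 17.0, 15.7, 35.1 and 18.6 in the PC libraries. PC replicate 3 was thus above MBC replicate 2. The log2 fold change was -0.84 (SE 0.49, 95% interval -1.95 to 0.26; adjusted p 0.332 by limma), and the interval spans 0. The ratio of Ltb to Lta, the chains that join at the cell surface, was 3.24, 2.27 and 2.02 in the MBC libraries and 2.20, 18.9, 7.65 and 15.1 in the PC libraries. It was higher than in any MBC library in 3 of the 4 PC libraries, whereas PC replicate 1 lay within the MBC range. The highest ratios, in PC replicates 2 and 4, stood on an estimated 9.82 and 16.7 reads of Lta, against 99.5 to 561 in the MBC libraries.

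**Figure D1:**
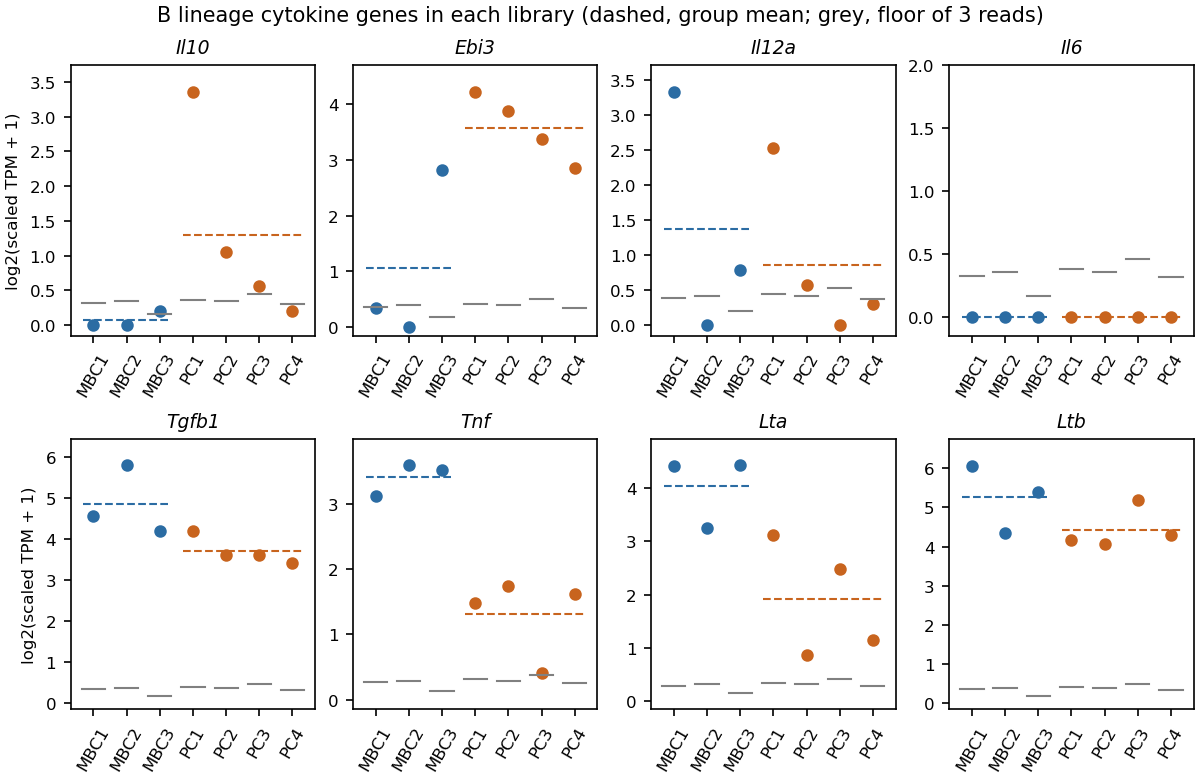
Level of each of the 8 cytokine genes in each library, as log2(scaled TPM + 1). Points are single libraries (blue, MBC, n = 3; orange, PC, n = 4), dashed lines are group means on this scale and grey ticks mark the value of 3 reads in that library; Tnf is lower in all 4 PC libraries, Ebi3 is near the floor in MBC replicates 1 and 2, and Il6 is at 0 throughout.

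Tgfb1 was expressed in every library. Its scaled TPM was 22.5, 54.4 and 17.35 in the MBC libraries and 17.32, 11.1, 11.2 and 9.65 in the PC libraries. All PC values were below all MBC values, but the nearest, from MBC replicate 3 and PC replicate 1, were almost equal, and MBC replicate 2 was far above the rest. The log2 fold change was -1.14 (SE 0.48, 95% interval -2.21 to -0.08), with an adjusted p of 0.178 by limma. Without MBC replicate 3 it was -1.46 (adjusted p 0.0549), and without MBC replicate 2 it was -0.70 (adjusted p 0.362).

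Of the chains of the IL-12 family, Ebi3 was the member with the most clearly higher values in PCs. It was at 0.274, 0 and 6.03 scaled TPM in the MBC libraries, which correspond to an estimated 2.90, 0 and 132 reads. In PC replicates 1 to 4 it was at 17.6, 13.7, 9.31 and 6.18 scaled TPM, with an estimated 66.2 or more reads in each. On scaled values every PC library was above every MBC library, but MBC replicate 3 came close to PC replicate 4. In TPM as deposited the groups overlapped. Ebi3 was then highest in MBC replicate 3, at 12.37, against 11.17, 9.23, 7.57 and 4.43 in PC replicates 1 to 4. The log2 fold change of 2.52 (SE 0.74, 95% interval 0.85 to 4.19) gave an adjusted p of 0.0707 by limma and was not called. Without MBC replicate 3 it was 3.28 (SE 0.54) with an adjusted p of 0.00583 by limma, and the gene was then called. In that fit Ebi3 reached the level required for testing through the PC libraries alone. The MBC values that remained, 0.274 and 0, were under the floor. The germinal center markers were higher in MBC replicate 3 too (above), and their part in its Ebi3 level was not tested.

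The genes for the partner chains of EBI3 were uneven or low. Il12a, at chr3:68690644-68698547, was listed at 9.12, 0 and 0.721 scaled TPM in the MBC libraries and at 4.78, 0.49, 0 and 0.237 in the PC libraries. It was high in 1 library of each group and at or under the floor in 3 of the 7. The log2 fold change of -0.52 (SE 0.87, 95% interval -2.47 to 1.43; adjusted p 0.761 by limma) left the direction undetermined. Il27, which encodes IL-27 p28, did not exceed 0.209 scaled TPM in any library. Il12b, which encodes IL-12 p40, did not exceed 0.102. Il23a, which encodes a partner of IL-12 p40 in IL-23, was listed at 0 in all 7 libraries.

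Il10, at chr1:131019845-131024974, was listed at 0, 0 and 0.156 scaled TPM in the MBC libraries and at 9.28, 1.07, 0.48 and 0.153 in the PC libraries. The estimated reads behind these values were 0, 0 and 4.01 in the MBC libraries and 95.9, 11.8, 3.98 and 1.96 in the PC libraries. PC replicate 1 was above all others. The values of PC replicate 4, which was under its floor of 0.235, and MBC replicate 3 could not be ordered at this depth. MBC replicate 3 was the only MBC library with any value above 0. MBC replicates 1 and 2 were listed at 0, which still allows up to 0.243 and 0.272 scaled TPM. PC replicates 1 to 3 were listed above these limits, whereas PC replicate 4 could not be placed above those libraries. Il10 did not reach the level required for testing. When all genes above 0 were fitted, its log2 fold change was 1.23 (SE 0.74), with an adjusted p of 0.521 by limma.

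Il6, at chr5:30013114-30019981, was listed at 0 in all 7 libraries. A count of 0 still allows up to 3 reads, which is 0.121 to 0.281 scaled TPM in the MBC libraries and 0.243 to 0.374 in the PC libraries for a transcript of the mean annotated length. Il6 was therefore not detectable at this depth.

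The members fell into 3 classes by their distance from the floor, which covers counting error only. Tgfb1, Tnf, Lta and Ltb were above it in all 7 libraries. Ebi3 was at or under it in 2 libraries, both of them MBC, and Il10 and Il12a in 3 each. Il6 was under it in all 7. Against the 11573 genes tested, the mean level of Ltb lay at percentile 86.8 in MBCs and 75.1 in PCs, and that of Tgfb1 at 81.8 and 61.4. Tnf lay at percentile 53.1 in MBCs and 10.97 in PCs and Lta at 66.9 and 27.0. Ebi3 lay at percentile 59.9 in PCs.

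Of the 6 members in the fit, 1 was called in PCs against MBCs, and it was lower. Over all 11573 genes, 8.55% were called, 2.14% lower and 6.41% higher in PCs (248 and 742 genes). The scaled TPM of the groups did not overlap for 4 of the 6 members, of which Tnf, Lta and Tgfb1 were lower and Ebi3 was higher, and for 21.7% of all genes tested. These counts are given side by side, since the members were chosen by name. Il10 and Il6 are not among the 6, and Ebi3 reached the required level through the PC libraries and MBC replicate 3. The scaling decided how many genes were called lower. With TPM as deposited, in which the median difference over the tested genes was -0.91 on the log2 scale, as opposed to 0.14 after scaling, 472 genes were called higher and 3018 lower, and the called members were Tnf (-3.15, adjusted p 0.00385 by limma), Lta (-3.22, adjusted p 0.0102), Tgfb1 (-2.40, adjusted p 0.0049) and Ltb (-2.12, adjusted p 0.0218). With immunoglobulin genes removed the split was 393 higher and 431 lower, and with quantile normalization 629 and 490.

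**Figure D2:**
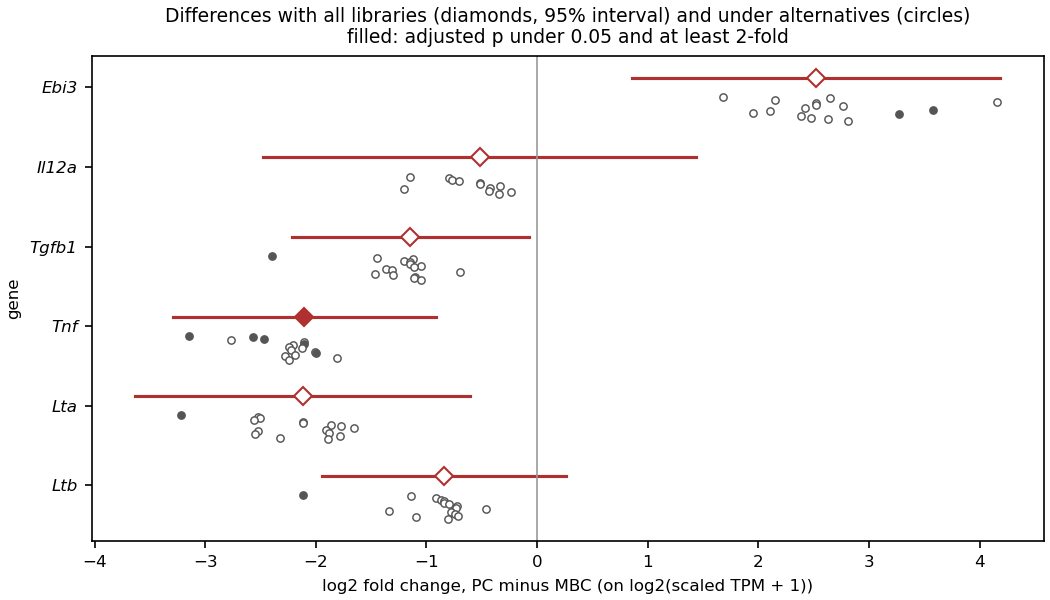
Log2 fold change, PC minus MBC, of the 6 members that were tested. Diamonds and lines are the estimate and its 95% interval with all 7 libraries (limma). Circles are the estimates under the alternative settings, and filled symbols are called. Tnf is filled with all libraries (-2.10). Ebi3 is filled only under 2 alternatives, both of which leave out MBC replicate 3.

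The make-up of the cytokine transcripts is described by the share of each gene in their sum. The deposited TPM of the 8 genes summed to 138 to 229 in MBC libraries and to 27.3 to 49.6 in PC libraries, and on the scaled values the sums were 93.1 to 126 and 38.1 to 75.5. Ltb made up 38.6% ± 16.3 (SD, n = 3) of this sum in MBCs and 40.9% ± 15.4 (SD, n = 4) in PCs, which differ by less than the spread. Tgfb1 made up 31.4% ± 23.4 and 22.8% ± 3.13. The MBC value for Tgfb1 rested on MBC replicate 2 (58.4%), and without it the share was 17.9%, below that of PCs. Ebi3 made up 2.16% ± 3.55 in MBCs and 21.3% ± 7.01 in PCs. The MBC value for Ebi3 rested on MBC replicate 3 (6.25%), and without it the share was 0.109%. Tnf took 9.62% ± 3.09 and 3.37% ± 2.36, and Lta 15.5% ± 6.10 and 5.70% ± 3.87. Il10 made up 12.3% of the sum in PC replicate 1 and 0.402% to 2.36% in the other PC libraries, so that the PC mean of 3.96% was 1.184% without PC replicate 1. Il12a made up 2.66% ± 3.98 in MBCs and 2.01% ± 2.92 in PCs, and these means were 0.374% without MBC replicate 1 and 0.568% without PC replicate 1. No test was made on these shares, each of which depends on all 8 genes.

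**Figure D3:**
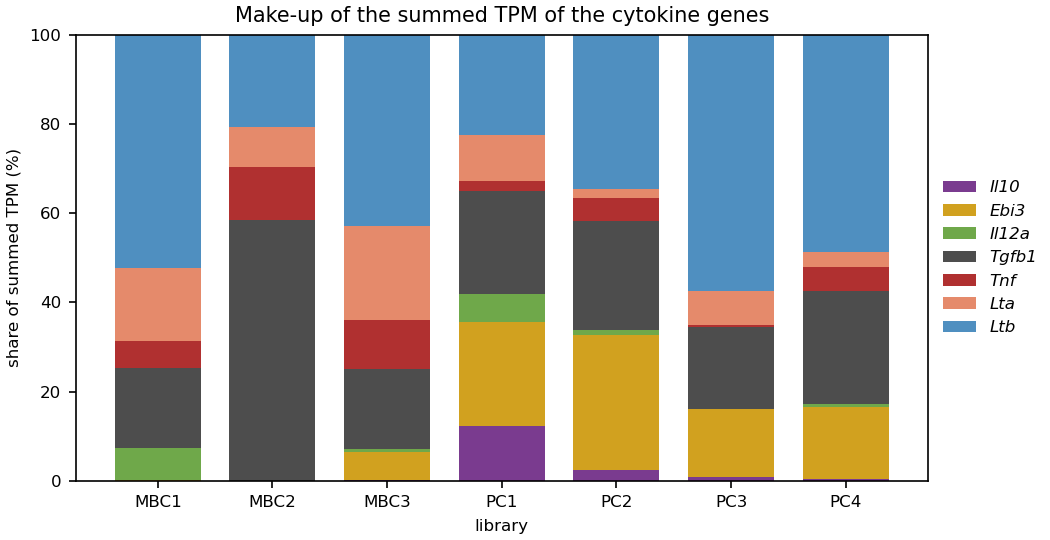
Share of each cytokine gene in the summed TPM of the members, in percent, for each library; bars start at 0 and end at 100, and Il6 is absent because it was listed at 0. Ebi3 takes 15.3% to 30.3% in the 4 PC libraries and 0 to 6.25% in the 3 MBC libraries.

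Genes that act with the members were examined in 9 lists of 94 genes, of which 16 were listed at 0 in every library and 43 were tested. Of the latter, 4 were called higher in PCs and 0 lower, beside 6.41% and 2.14% of all tested genes, so that the count itself sets these lists little apart from the rest. Of 10 tested receptor chains, Il6st, which encodes the gp130 chain shared by the receptors of IL-6, IL-27 and IL-35, was called. It was at 0.505, 10.7 and 1.22 scaled TPM in the MBC libraries and at 34.5, 54.7, 37.9 and 36.9 in the PC libraries, without overlap (log2 fold change 3.61, SE 0.67, adjusted p 0.00932 by limma). The ligand-binding chain Il6ra overlapped between the groups, at 1.13 to 7.47 and 4.13 to 6.40 scaled TPM.

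The receptors of TNF itself were low. Tnfrsf1a, which encodes TNFR1, was listed at 0 in all 3 MBC libraries and reached 2.04, 1.03, 0 and 0.307 scaled TPM in the PC libraries. Tnfrsf1b, which encodes TNFR2, was at 0.22, 6.94 and 1.67 scaled TPM in the MBC libraries and at 2.44 to 6.34 in PCs, with overlap. Its log2 fold change was 0.59 (SE 0.68, adjusted p 0.647 by limma), and its sign depended on the scaling and on MBC replicate 1. Ltbr, which encodes the receptor of the LTα and LTβ heterotrimer, did not exceed 0.0446 scaled TPM in any library. Tgfbr1 and Tgfbr2, which encode the TGF-β receptor chains, were present in all libraries, at 7.53 to 34.3 and 20.0 to 48.9 scaled TPM in MBCs and 16.9 to 20.5 and 11.6 to 15.4 in PCs. Neither was called.

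None of the 4 genes for shedding of TNF family ligands was called. Adam17, which encodes the protease that releases TNF from the membrane, was at 23.0 to 30.2 scaled TPM in MBCs and 12.6 to 20.4 in PCs (log2 fold change -0.62, SE 0.37, adjusted p 0.341 by limma). All 9 genes for cytokine mRNA decay and stability were tested and 0 were called. Zfp36, which encodes the protein tristetraprolin that binds AU-rich cytokine messages, was at 37.6 to 103 scaled TPM in MBCs and 129 to 215 in PCs (adjusted p 0.0759 by limma).

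Among 14 other ligands of the TNF superfamily, Tnfsf10, which encodes TRAIL, was the only 1 tested, and it was called. It reached the level required for testing through the PC libraries alone. It was listed at 0, 0 and 0.0877 scaled TPM in the MBC libraries and at 8.57, 10.6, 9.26 and 6.71 in the PC libraries (log2 fold change 3.24, SE 0.46, adjusted p 0.00206 by limma). The remaining 13 did not exceed 2.83 scaled TPM in any library. Of 22 other cytokines, 11 were listed at 0 in every library, and 2 were tested without a call. Il15, which encodes a growth factor of lymphocytes, was at 0 to 0.0494 scaled TPM in MBCs and 0.912 to 2.98 in PCs (adjusted p 0.0726 by limma). Like Tnfsf10, it was tested on the strength of the PC libraries alone. Il16, the most abundant of this list, overlapped at 20.5 to 46.9 and 21.6 to 31.1.

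Of 8 tested genes for factors known to act at the Il10 gene, 2 were called. Prdm1, which encodes Blimp-1, was at 9.98, 0 and 1.89 scaled TPM in the MBC libraries and at 91.3, 104, 112 and 106 in the PC libraries (log2 fold change 5.04, SE 0.69, adjusted p 0.00172 by limma). Irf4 was at 29.9, 12.0 and 11.4 scaled TPM in MBCs and at 222, 174, 198 and 158 in PCs (log2 fold change 3.45, SE 0.39, adjusted p 0.000536 by limma). Both genes are regulators of plasma cell differentiation. In the same PC libraries Il10 ranged from 0.153, which is under its floor, to 9.28. A link between the level of Il10 and that of Prdm1 or Irf4 was not tested. Of the neighbours of Lta, Tnf and Ltb, 6 of 8 were tested and 0 were called. Storage and activation of TGF-β was covered by 3 tested genes of 12, and 0 were called.

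**Figure D4:**
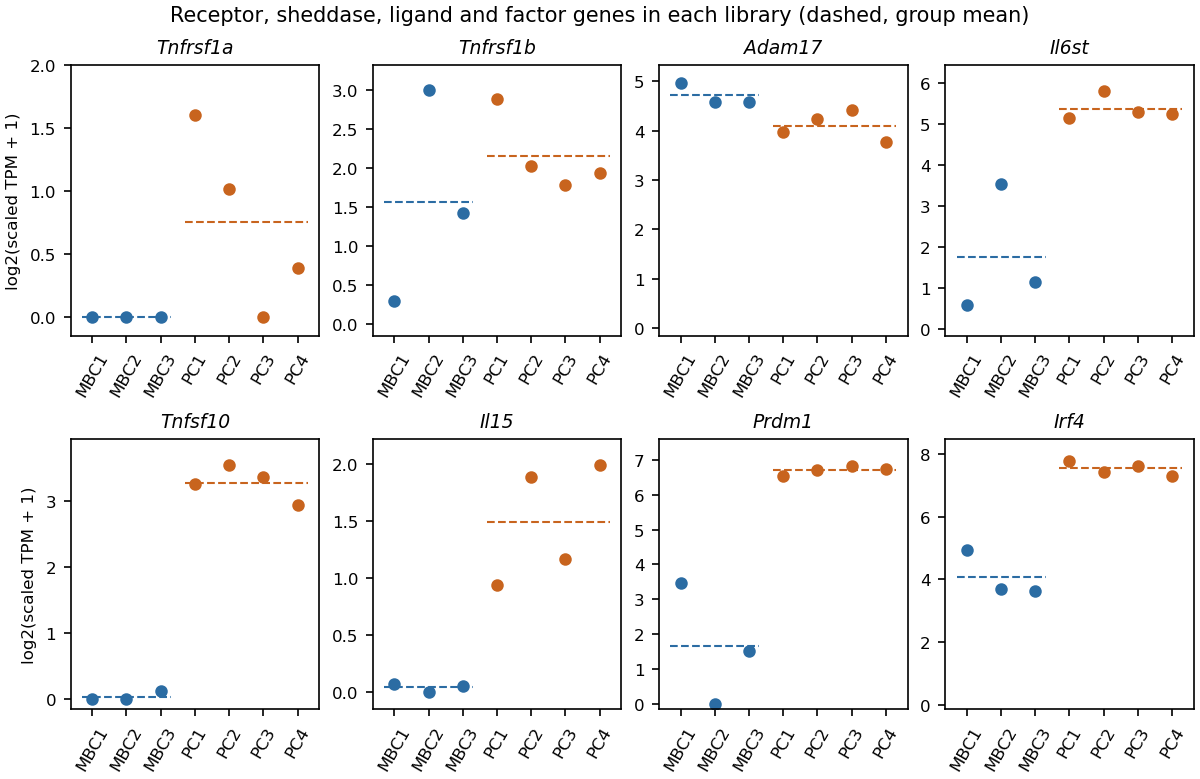
Levels of 8 genes that act with the members or beside them, as log2(scaled TPM + 1), by library (blue, MBC; orange, PC; dashed lines, group means on this scale). Il6st, Tnfsf10, Prdm1 and Irf4 were called higher in PCs, and Tnfrsf1a was listed at 0 in all 3 MBC libraries.

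Other cells of the spleen also make these cytokines, and their markers were not equal between the groups. The 8 T cell markers summed to 14.3, 0 and 24.1 scaled TPM in the MBC libraries, of which Lck took 14.3, 0 and 23.0, and to 15.3 to 44.1 in PCs, where all 8 exceeded the floor in at least 1 library. Cd3e was at 3.86 to 14.2 scaled TPM in the PC libraries. The 5 NK cell markers summed to 0 to 0.0439 in MBCs and to 3.79 to 7.42 in PCs. Tnfsf10 and Ebi3 were higher in the group with more of these markers, and their part in these levels was not tested. The 7 monocyte and macrophage markers summed to 15.5, 30.3 and 2.41 scaled TPM in the MBC libraries and to 2.44 to 8.93 in PCs, with Fcgr1 at 0 throughout. The T cell and NK cell markers were at 0 in MBC replicate 2, the library with the highest myeloid sum. There Tnf was at 11.1 scaled TPM and Lta at 8.45, the lowest Lta value of the MBC libraries. In MBC replicate 1, with a T cell sum of 14.3, Tnf was at 7.68 and Lta at 20.4. The myeloid sum was lowest in MBC replicate 3, the library that stood apart, where Tnf was at 10.5 and Lta at 20.5. The part of these cells in the levels of Tnf and Lta was not tested. Dendritic cell markers summed to 6.18 to 11.1 and 1.32 to 5.01, and of 6 neutrophil markers 5 were at 0 throughout. Of 6 stromal markers Col1a1, Col1a2 and Pdgfra were at 0 throughout, and Pecam1, which B cells also express, made up nearly all of the sum of 13.5 to 183 in MBCs. This sum, at 183, and the myeloid sum were highest in MBC replicate 2, the library with the most Tgfb1, and their part in that level was not tested. Mitochondrial transcripts took 19.7% to 33.5% of all TPM in the MBC libraries, compared with 8.10% to 9.80% in the PC libraries.

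The tested genes whose levels followed those of the members most closely over the 7 libraries were named by Pearson's r of log2(scaled TPM + 1), which over so few libraries is a description. For Tnf these were Cotl1 (r = 0.985), an actin-binding protein, Havcr1 (r = 0.981), which encodes TIM-1, a surface protein of B cells, and Arpc4 (r = 0.981), a subunit of the Arp2/3 complex. Havcr1 was at 73.1 to 101 scaled TPM in MBCs and 6.45 to 15.5 in PCs. For Lta they were Abraxas1 (r = 0.966), Gm7809 (r = 0.961) and Pum2 (r = 0.952), and for Ltb Tsnax (r = 0.981), Mapk14 (r = 0.976) and Gm20429 (r = 0.975). For Tgfb1 they were Rnf145 (r = 0.995), Slc2a4rg-ps (r = 0.993) and Arhgap27 (r = 0.99). For Ebi3 they were Brap (r = 0.99), Cdpf1 (r = 0.99) and Tmem160 (r = 0.989), which like Ebi3 were higher in MBC replicate 3 than in MBC replicates 1 and 2. For Il12a they were Prdm15 (r = 0.993), Gm43203 (r = 0.984) and Eml5 (r = 0.983), all highest in MBC replicate 1 and next in PC replicate 1. Among the members themselves, r was 0.73 for Lta and Ltb, 0.621 for Tnf and Lta and 0.309 for Tnf and Ltb, the neighbours on chromosome 17, and 0.732 for Tnf and Tgfb1, which lie on different chromosomes. No gene was named for more than 1 of Tnf, Lta and Ltb, which says little when 3 of 11573 tested genes are named for each.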

How the data were processed

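RNA of sorted splenic MBCs and PCs was made into cDNA with a Nugen kit and sequenced on an Illumina HiSeq. The authors deposited TPM values with 2 decimals for 48795 Ensembl genes. The submitters' processing notes name STAR 2.5.2a, RSEM 1.3.0 and the GRCm38 build. The annotation release is not given in the sources used here, and symbols and coordinates came from GENCODE M21 of the same build (48349 symbols).

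TPM was divided by each library's median ratio to the geometric mean over 9305 genes above 0 in all libraries (scaled TPM). Testing required 1 deposited TPM or more in at least 3 libraries. It was done on the log2 of scaled TPM plus a pseudocount of 1, using limma 3.58.1 (R 4.3.3; lmFit, eBayes with trend; two-sided; all 7 libraries, no covariate). Differences are given as PC minus MBC, and those of low genes come out too small on this scale. Called means a Benjamini-Hochberg adjusted p below 0.05 together with a log2 difference of 1 or more in size. The procedure was tested on simulated data.

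TPM holds no read totals. The worth of 1 read was estimated from the steps of low values of genes with 1 annotated transcript, of which 76.4% to 86.0% lay near a whole number of reads, against 30% by coincidence. The floor of a gene is 3 reads at its mean annotated transcript length, and it covers counting error only because cDNA was amplified without molecular identifiers. For Il6, Il12a and Tgfb1, whose annotated transcripts differ much in length, it is approximate. Python 3.11.15, pandas 2.3.3 and numpy 2.4.6 were used.

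The members, lists, tests and alternatives were chosen with earlier results of these data known. Named were all members, up to 6 called genes of each list, the genes that share a protein or receptor with a called member, and for each tested member the 3 genes most alike. The partner chains, Il6ra, the TGF-β receptors, Ltbr, Zfp36, Il15 and Il16 were added after their values were seen. The alternatives are TPM as deposited, immunoglobulin genes removed, quantile normalization, a pseudocount of 0.1, all genes above 0, no trend, blocks by replicate number or title code, the more frequent title prefix, each library left out, other transcript lengths, and shares with each library left out.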

Additional observations from a re-analysis of the deposited data

Results flagged for a closer look

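Among the 4 PC libraries, 3 of the 7 members with any value had 1 library whose gap to its nearest neighbour exceeded Dixon's 95% critical value. The rate of 1 in 20 groups that belongs to this value holds for normally distributed values. The gaps were taken on scaled TPM without a log, so that rate cannot be set beside this count. The log scale was not examined. Il10 was at 9.28 scaled TPM in PC replicate 1, against 0.153 to 1.07 in the other PC libraries. Il12a was at 4.78 scaled TPM in the same library, against 0 to 0.49 in the others, and it was also listed at 9.12 in MBC replicate 1, which carries the same title code. Ltb was at 35.1 scaled TPM in PC replicate 3, against 15.7 to 18.6 in the other PC libraries. The MBC group, with 3 libraries, was not examined in this way.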

How the results depend on the processing

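The direction of Ebi3, Tgfb1, Tnf, Lta and Ltb held under all 16 alternatives. Il12a kept its sign in the 12 that could be fitted. It fell under the level required for testing without MBC replicate 1, without MBC replicate 3, without PC replicate 1 and within the more frequent prefix. Its direction in those settings was not examined and stays undetermined. Genes called numbered 990 with all libraries, 3490 with TPM as deposited, 560 with all genes above 0, 450 with the replicate block, 517 with a block by title code, and 549 to 2505 with 1 library left out, the highest without MBC replicate 3. Member genes called numbered 1 with all libraries, 4 with TPM as deposited, 0 with a pseudocount of 0.1, with all genes above 0 or with either block, and 0 to 2 with 1 library left out, the highest again without MBC replicate 3, when Ebi3 joined Tnf. The more frequent prefix leaves out MBC replicate 3 and PC replicate 4. Within it 1 member was called, Ebi3 (log2 fold change 3.58, adjusted p 0.0144 by limma). Both calls of Ebi3 thus rest on the omission of MBC replicate 3 and are not separate results. In both fits Ebi3 reached the level required for testing through the PC libraries alone. The adjusted p of Tnf ranged from 0.00385 to 0.173 over the 16 alternatives. Neither replicate numbers nor title codes met the criterion for pairing (over 0.1 in every pair) for the libraries: deviations of same-numbered libraries correlated at 0.109, -0.04 and -0.0832, those of libraries sharing a title code at 0.222 (MBC replicate 3 and PC replicate 4), 0.109 and -0.0044, and 2 of 6 libraries correlated best with their own number. With the replicate block Tnf was at -2.21 (adjusted p 0.173 by limma). Il6st, Tnfsf10, Prdm1 and Irf4 kept the call in all 16 alternatives. Of these, Tnfsf10 met the level required for testing through the PC libraries alone (above). Tnfrsf1b was at -0.26 with TPM as deposited and between -0.072 and 1.26 with 1 library left out, below 0 without MBC replicate 1, and Adam17 was called with TPM as deposited (-1.88). With another transcript length, 15 to 17 of 44 estimates of reads moved beyond counting error. Depth limits Il6, Il10 and Il12a, and Ebi3 in MBC replicates 1 and 2.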
